A study of Mus musculus with 6 samples.

Results

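The genes described here encode proteins of the myelin sheath that Schwann cells wrap around motor and sensory axons inside muscle nerves, together with Egr2, the transcription factor that switches those genes on. The list held 8 genes, Mbp, Pmp22, Mag, Prx, Cnp, Pmp2, Egr2 and Ncmap, and every probe set annotated with 1 of these symbols was taken. Of the 8 genes, 7 had at least 1 probe set, 17 probe sets in all among the 45037 that were not controls. The expression of Prx was not analysed here. Hind limb skeletal muscle had been taken whole from 3 mice deficient in the laminin alpha 2 chain and 3 wild type mice, all 4 weeks old, and each mouse was read on its own Affymetrix array. The labels name no allele, strain or sex for either group. The comparison is of myelin transcript levels in muscle deficient in laminin alpha 2 and in wild type muscle.

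Schwann cells form myelin only in contact with a basement membrane, and laminin 211, the trimer built on the alpha 2 chain, is the main laminin of that membrane in peripheral nerve. Its loss in mice and in people is known to cause a dysmyelinating neuropathy beside the muscular dystrophy, most marked in spinal roots, where axons can stay unsorted and bare. Compact myelin is held together by Mbp and Pmp22 with the lipid-binding protein Pmp2, while Mag, Cnp and Ncmap belong to the non-compact parts of the sheath. Whole muscle holds little nerve, so myelin transcripts there are a small part of the RNA. Fewer Schwann cells and less RNA per cell cannot be told apart in such bulk samples.

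Lama2, the gene of the deficient chain, had 82, 31.1 and 140.4 signal units in deficient muscle. In wild type muscle it had 428.7, 415.6 and 326.2 units, with an adjusted p of 0.0207 for the difference. The groups did not overlap, which fits the labels. Leaving out deficient replicate 1, wild type replicate 1 or wild type replicate 2 ended this call, at adjusted p of 0.0592, 0.103 and 0.0837. Signal is in linear, globally scaled units in which array medians ran from 20 to 26.1, and the number of arrays limits the precision. Differences are given as deficient minus wild type in log2(signal + 16). Folds are on the same scale, as ratios of signal + 16 and not of signal. For dim genes this scale makes a change look smaller than it is. A gene counted as called when its p from limma, adjusted by Benjamini-Hochberg over all genes tested, was under 0.05.

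No myelin gene passed that test. Of the 7 measured genes, 0 were called in either direction, where 2.69% of the 13104 genes tested were called. At an unadjusted p under 0.05 there were 3 of the 7, Ncmap and Cnp on the higher side and Pmp2 on the lower, where 18.9% of all genes stood at that level, 9.43% higher and 9.49% lower. Differences were positive in 6 of 7 and in 52.6% of all genes tested, with medians of 0.22 and 0.024. All 3 deficient arrays lay above all 3 wild type arrays in 2 of the 7, Ncmap and Cnp, as they did in 12.3% of genes. At the level of single probe sets 0 of 17 were called, against 1.41% of the 27026 tested, and the lowest adjusted p was 0.175. Of the 17, 14 had a positive difference, as did 53.1% of all probe sets. None of the 7 genes was called in any of the 16 alternatives run for each of them, or 15 for Mag, which was too dim for the stricter filter.

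**Figure D1:**
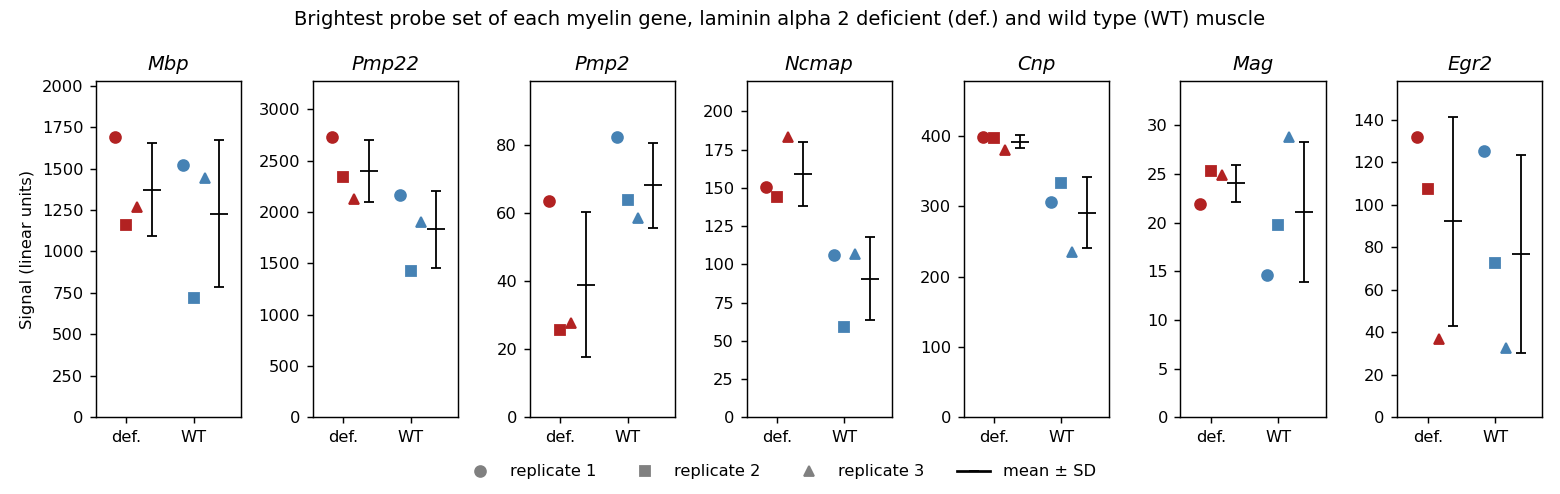
Linear signal (vertical axis, 1 scale per gene, from 0) of the brightest probe set of each of the 7 measured myelin genes on the 3 laminin alpha 2 deficient (def.) and 3 wild type (WT) arrays, with shapes for the replicate number and bars for the mean ± SD. The groups are apart in Ncmap and Cnp and overlap in the other 5 genes, and wild type replicate 2 is the lowest array for Mbp, Pmp22 and Ncmap.

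Ncmap, which encodes a small membrane protein of non-compact myelin, had the largest positive difference among the 7. Its promoters and that of Cnp are shown because these were the 2 genes whose groups did not overlap in their brightest probe set. The table of RefSeq promoters on GRCm38.p6 held 16 windows for 6 of the 8 genes, Prx among them, and none for Mbp or Pmp2. In the 250 bases before each start, on both strands, GTGGGNG, the core of the sites bound by Egr proteins, and ACAANG, the core of the sites bound by Sox proteins, were searched. Capitals mark matches to either, written 5′ to 3′ in the direction of the gene.
Ncmap, chr4:135398228-135398477, minus strand: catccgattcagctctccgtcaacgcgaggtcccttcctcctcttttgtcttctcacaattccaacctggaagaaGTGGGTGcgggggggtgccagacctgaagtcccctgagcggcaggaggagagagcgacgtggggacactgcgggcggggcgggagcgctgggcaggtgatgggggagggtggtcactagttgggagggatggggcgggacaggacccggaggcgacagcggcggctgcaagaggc
Ncmap, chr4:135385673-135385922, minus strand: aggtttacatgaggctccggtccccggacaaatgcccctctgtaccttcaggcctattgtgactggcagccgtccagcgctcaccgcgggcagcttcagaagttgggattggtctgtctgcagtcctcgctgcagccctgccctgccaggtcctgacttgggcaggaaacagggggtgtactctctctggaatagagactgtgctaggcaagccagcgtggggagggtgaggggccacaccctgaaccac
Cnp, chr11:100574689-100574938, plus strand: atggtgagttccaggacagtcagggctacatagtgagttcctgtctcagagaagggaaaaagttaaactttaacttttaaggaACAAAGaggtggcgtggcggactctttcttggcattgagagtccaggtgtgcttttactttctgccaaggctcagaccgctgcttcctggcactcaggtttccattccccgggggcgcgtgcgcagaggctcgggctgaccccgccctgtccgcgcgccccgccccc
The first Ncmap window held 1 Egr core, beginning 175 bases before the start, and the second held none. The Cnp window held 1 Sox core, beginning 167 bases before the start. Over all members, the Egr core was in 4 of 16 windows and the Sox core in 5 of 16, where 28.1% and 36.3% of 32851 windows of the same length held them. The full Egr sequence GCGTGGGCG was in none of the 16 and in 0.536% of all windows. Some of the 16 windows overlap each other, and a match describes letters, not binding.

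Mbp encodes myelin basic protein, which zips the cytoplasmic faces of the compact sheath together, and lies on chromosome 18 (82475091 to 82585637, GRCm38.p6). Its brightest probe set, 1433532_a_at, read 1690, 1157 and 1271 units in deficient muscle and 1522, 719.2 and 1445 units in wild type muscle. The groups overlapped, with wild type replicate 2 far below the other 5 arrays. The difference was 0.21 (SE 0.284, adjusted p = 0.735), with a 95% interval from -0.42 to 0.85, or 0.747-fold to 1.8-fold. Without wild type replicate 2 its sign turned, to -0.13 (adjusted p = 0.844).

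The 8 Mbp probe sets differed among themselves. Differences were positive in 7 and the groups overlapped in 7. The probe set 1425264_s_at was the exception, with 67.6, 67.5 and 58.7 units in deficient muscle and 47.2, 57.8 and 48.9 units in wild type muscle, a difference of 0.26 (SE 0.209, adjusted p = 0.571). All 3 deficient arrays were higher there, as in 10.8% of all probe sets. The largest positive difference was 0.46 (SE 0.295, adjusted p = 0.47) for 1436201_x_at, with 593.7, 488.1 and 479.7 units in deficient muscle against 605.9, 240.7 and 348.9 units in wild type muscle. The 1 negative difference belonged to 1451961_a_at, -0.41 (SE 0.448, adjusted p = 0.69), with 222.2, 39.2 and 74.7 units in deficient muscle and 94.5, 149.7 and 137.5 units in wild type muscle. The remaining differences were 0.041 for 1419646_a_at, 0.24 for 1454651_x_at, 0.26 for 1425263_a_at and 0.42 for 1456228_x_at, and in each the groups overlapped. The probe set 1451961_a_at was split within the deficient group, where replicate 1 was the highest of all 6 arrays and the other 2 the lowest. The Mbp gene also gives rise to golli transcripts, made in cells outside the myelin lineage, and the annotation used here does not tie a probe set to either kind of transcript.

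Pmp22, on chromosome 11 (63128982 to 63159547), encodes a tetraspan protein of compact myelin whose dosage decides between healthy nerve and inherited neuropathy. It is also made by fibroblasts, endothelium and epithelia. Its only probe set read 2729, 2343 and 2124 units in deficient muscle and 2166, 1428 and 1904 units in wild type muscle. Deficient replicates 1 and 2 stood above every wild type array, and deficient replicate 3 stood just below wild type replicate 1. The difference was 0.40 (SE 0.187, adjusted p = 0.287), with an interval from -0.021 to 0.82, or 0.986-fold to 1.76-fold. It came to 0.23 without wild type replicate 2 (adjusted p = 0.64). The fibroblast markers Pdgfra and Pdgfrb also lay higher on all 3 deficient arrays, with differences of 0.60 and 0.84 (adjusted p = 0.145 and 0.119). Over the fibroblast list 7 of 9 tested genes had a positive difference and 0 were called, with Col1a1 and Thy1 at -0.15 and -0.40. The summed signal of that list ranged from 23640 to 31270 in deficient and from 18360 to 28290 in wild type muscle. Endothelial markers had a negative difference in 8 of 10 tested, with 0 called and a median of -0.18. Hair follicle and epidermal genes were negative in 11 of 12 tested, with 2 called lower and a median of -1.49. The part of any of these cells in the Pmp22 values was not tested. The 4 other genes of the Pmp22 family, Emp1, Emp2, Emp3 and Lim2, were not called either. Emp1, an epithelial membrane protein, read 1812, 1291 and 674.9 units in deficient muscle and 506.3, 448.1 and 463.5 units in wild type muscle, a difference of 1.28 (SE 0.308, adjusted p = 0.0629).

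Pmp2, on chromosome 3 (10179851 to 10183885), encodes the fatty acid-binding protein of peripheral myelin and was the only gene of the 7 with a negative difference. It read 63.5, 25.6 and 27.8 units in deficient muscle and 82.4, 63.9 and 58.6 units in wild type muscle. Deficient replicates 2 and 3 lay below all wild type arrays, while deficient replicate 1 sat among them. The difference was -0.67 (SE 0.282, adjusted p = 0.235), with an interval from -1.30 to -0.042, or 0.405-fold to 0.972-fold. Over its 16 alternatives it ran from -0.97 to -0.38 and kept its sign, with adjusted p from 0.0916 to 0.496. Of the related binding proteins Fabp1 to Fabp7, 4 were tested and 0 were called. The median of those 4 was -0.11.

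**Figure D2:**
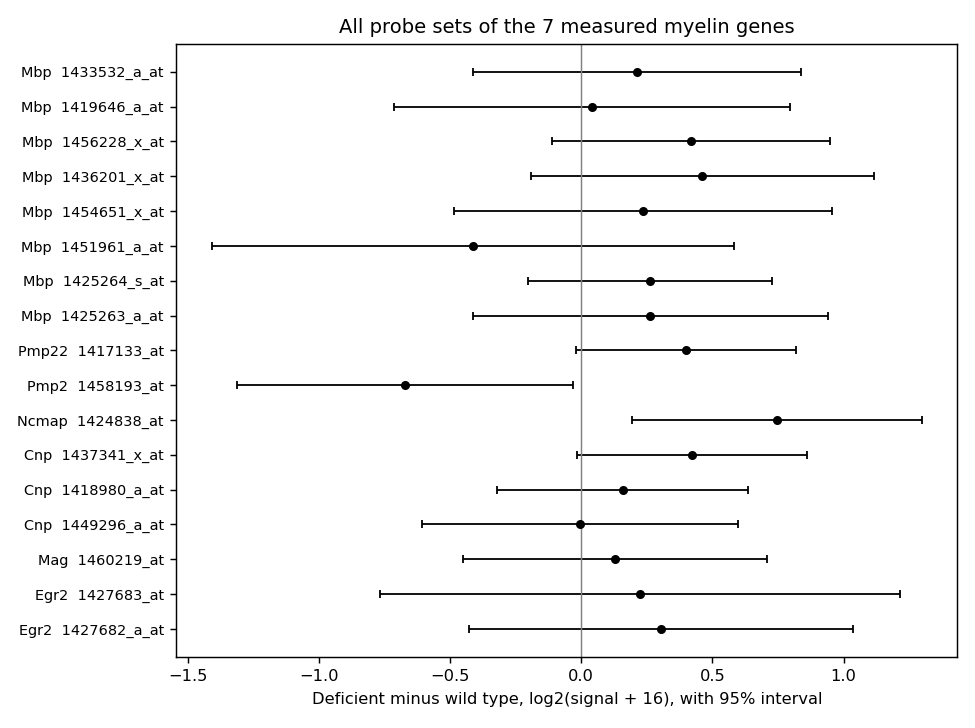
Difference of deficient minus wild type muscle (horizontal axis, log2(signal + 16), points) with its 95% interval from limma (bars) for all 17 probe sets of the 7 genes, named on the vertical axis. Only the intervals of Ncmap and Pmp2 leave out 0, on opposite sides, and the 8 Mbp intervals all hold 0.

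Ncmap, on chromosome 4 (135369576 to 135398240), read 150.7, 144.1 and 183.2 units in deficient muscle and 106.2, 59.1 and 106.7 units in wild type muscle. All 3 deficient arrays were above all 3 wild type arrays. Its mean was 159 ± 20.9 units in deficient and 90.7 ± 27.3 units in wild type muscle (SD, n = 3 each). The difference was 0.75 (SE 0.237, unadjusted p = 0.0109, adjusted p = 0.129), with an interval from 0.22 to 1.28, or 1.16-fold to 2.42-fold. Its sign held in all 16 alternatives, between 0.51 and 0.87, and the adjusted p ran from 0.0552 to 0.362. Without wild type replicate 2 the difference was 0.51.

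Cnp, on chromosome 11 (100574909 to 100591875), encodes the phosphodiesterase that keeps cytoplasmic channels open in myelin and is also made at low level outside it. Its brightest probe set, 1437341_x_at, read 398.7, 396.8 and 381 units in deficient muscle and 306.2, 332.8 and 235.1 units in wild type muscle. The groups did not overlap, and the deficient arrays lay close together. The difference was 0.42 (SE 0.188, unadjusted p = 0.0493, adjusted p = 0.262). In the limma fit over all probe sets, 1437341_x_at had an unadjusted p of 0.0573 (adjusted p = 0.321), with an interval from -0.016 to 0.86. The other Cnp probe sets overlapped between the groups. Their differences in that fit were 0.16 for 1418980_a_at (SE 0.215, adjusted p = 0.758) and -0.0047 for 1449296_a_at (SE 0.271, adjusted p = 0.996). The mean of all 3 probe sets gave 0.19 for the gene (adjusted p = 0.573).

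Mag, on chromosome 7 (30899175 to 30914922), encodes the adhesion protein that faces the axon. It was dim, with 21.9, 25.3 and 24.9 units in deficient muscle and 14.6, 19.8 and 28.8 units in wild type muscle, where the filter on low signal lay at 15 units. The wild type arrays spanned the deficient ones on both sides. The difference was 0.13 (SE 0.254, adjusted p = 0.835), with an interval from -0.44 to 0.70.

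Egr2, on chromosome 10 (67534469 to 67542188), is the transcription factor that drives the myelin programme in Schwann cells and is also an immediate early gene of macrophages and other cells. Its brightest probe set, 1427683_at, read 131.9, 107.6 and 37 units in deficient muscle and 125.3, 72.7 and 32.6 units in wild type muscle. The lowest array of each group was replicate 3, and the groups overlapped. The difference was 0.22 (SE 0.448, adjusted p = 0.838), the widest interval of the 7 genes, from -0.78 to 1.23. The second probe set, 1427682_a_at, gave 0.30 (SE 0.329, adjusted p = 0.688). Its relative Egr1 read 954.6, 1332 and 438.3 units in deficient muscle and 403.7, 1082 and 293.7 units in wild type muscle, again lowest in replicate 3 of each group. The immediate early gene Fos did the same, with 1016, 550.7 and 107.5 units in deficient muscle and 991.6, 2317 and 141.2 units in wild type muscle. The Y-linked transcript Eif2s3y was also low in replicate 3 of each group, 9.1 units in the deficient and 10.7 in the wild type animal, against 414.6 and 573.7 in the other deficient and 474.1 and 466.8 in the other wild type animals. Which of these goes with the Egr2 level was not tested. Of 8 tested genes of the Egr and immediate early list, 0 rose and 1 fell, where 1.25% of all genes tested rose and 1.44% fell. The gene that fell was Nr4a1, a nuclear receptor of the immediate early response, with 357.4, 479.2 and 394.3 units in deficient muscle and 1055, 1400 and 1139 units in wild type muscle (difference -1.51, SE 0.188, adjusted p = 0.00584), and it stayed called in all 16 alternatives.

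Individual arrays stood apart within each group. Standardized over the 6 arrays and averaged, the 7 genes stood at 0.73, 0.21 and 0.015 on the deficient arrays and at 0.058, -0.76 and -0.25 on the wild type arrays. Deficient replicate 1 was highest and wild type replicate 2 lowest. Wild type replicate 2 was the lowest array for 3 of the 7 genes and for 17.3% of all genes tested. It was also the lowest in 17 of 37 other Schwann cell genes, pooled over 5 lists after their values were seen. Deficient replicate 1 was the highest array for 4 of the 7 genes and for 16.7% of all genes tested. The 8 genes outside all lists whose values were most like this mean, by Pearson correlation over the 6 arrays, were Birc3, Ndrg1, Pik3r5, Dock2, Atg3, Slc7a7, Enox1 and Tgfbi, at r from 0.971 to 0.993. Among 13104 genes and only 6 arrays such values are a description. Each member is part of the mean it is set against, which raises its correlation. These were 0.988 for Pmp22, 0.80 for Mbp, 0.779 for Ncmap, 0.502 for Egr2, 0.50 for Cnp, 0.027 for Mag and -0.14 for Pmp2.

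**Figure D3:**
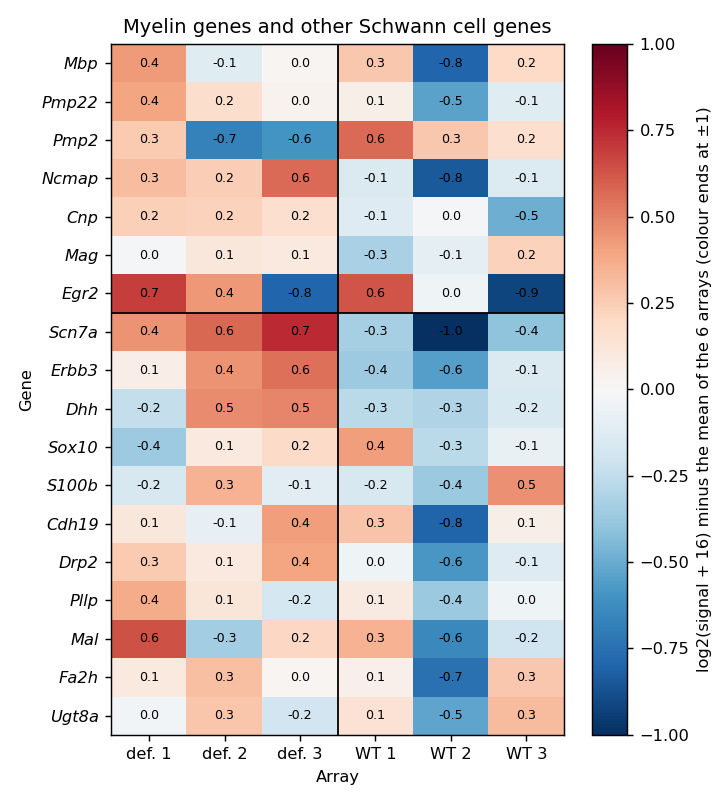
Deviation of each array from the mean of the 6 (colour and printed value, log2(signal + 16)) for the 7 myelin genes, above the line, and 11 other Schwann cell genes chosen after their values were seen, below it, with the deficient (def.) arrays left and the wild type (WT) arrays right. The column of wild type replicate 2 is low in most rows, but below the line this follows from the choice of genes. Tspan2, which is not shown, was highest on that array. Scn7a and Erbb3 are higher on all 3 deficient arrays.

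Related genes of the sheath were read next. Of 15 other structural and junctional myelin genes, 8 were tested and 0 were called, with a median difference of 0.17. Drp2, which links periaxin and dystroglycan in Schwann cells, read 116.5, 101.9 and 129 units in deficient muscle and 91.2, 57.5 and 85 units in wild type muscle (0.50, SE 0.212, adjusted p = 0.238). Its groups did not overlap. The tetraspanin gene Tspan2 lay lower on all 3 deficient arrays, with 85.6, 47.4 and 46.3 units against 135.8, 154.2 and 95.1 units in wild type muscle (-0.95, SE 0.259, adjusted p = 0.0883). Gjb1, Gjc3, Cldn19 and Sh3tc2 fell under the filter on low signal. Of 7 enzymes of myelin sphingolipids 0 were called, with a median of 0.21. Ugt8a, which makes galactocerebroside, averaged 84.5 ± 16.8 units in deficient and 83.6 ± 28.1 units in wild type muscle (SD, n = 3 each; 0.043, adjusted p = 0.953).

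Among genes of all Schwann cells and of those that do not myelinate, 1 of 8 tested rose and 0 fell. The gene that rose was Scn7a, a sodium channel-like gene known from non-myelinating Schwann cells, with 299.7, 328.1 and 372.4 units in deficient muscle and 168.2, 96.6 and 159 units in wild type muscle. The difference was 1.18 (SE 0.229, adjusted p = 0.0311). The call was lost with any of 5 arrays left out, all but deficient replicate 3, at adjusted p from 0.0547 to 0.112. It was also lost with the mean of all probe sets (0.74, adjusted p = 0.127) and with no trend (adjusted p = 0.058), and 2 of its 3 probe sets lay higher on all 3 deficient arrays. The remaining 7, among them S100b and Cdh19, did not pass, and the median of the 8 was 0.074. Erbb3, the Schwann cell receptor for axonal neuregulin, read 128.6, 172.1 and 186.1 units in deficient muscle and 91.1, 78.1 and 108.8 units in wild type muscle (0.71, SE 0.209, adjusted p = 0.108). Its other probe set read at most 17.2 units on any array. None of the 8 tested genes of axonal signals and receptors was called, with 6 positive differences and 2 negative. Prnp, on the negative side, lay lower on all 3 deficient arrays (-0.55, adjusted p = 0.123). Sox10, the partner of Egr2, averaged 30.8 ± 9.15 units in deficient and 32.7 ± 12.4 units in wild type muscle (SD, n = 3 each; -0.049, adjusted p = 0.949). Of 6 tested factors that promote myelination 0 were called. In that list Yy1 and the Egr2 corepressor gene Nab2 lay higher on all 3 deficient arrays, with differences of 0.58 (adjusted p = 0.108) and 0.53 (adjusted p = 0.208).

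Genes of the immature or repair Schwann cell and of negative control of myelination were tested in 10 cases, and 0 were called. Jun, the factor of repair Schwann cells that many muscle cells also express, read 466.8, 345.6 and 294.7 units in deficient muscle and 599.7, 1166 and 487.7 units in wild type muscle (-0.92, SE 0.311, adjusted p = 0.151). Id2, an inhibitor of myelin gene activation with wide expression, lay the other way, at 1.13 (SE 0.275, adjusted p = 0.0632). Beside Lama2, the endoneurial laminin genes Lama4 and Lamb1 lay higher on all 3 deficient arrays, with differences of 0.81 (adjusted p = 0.125) and 0.67 (adjusted p = 0.159). Of 8 tested genes of that list 1 fell, Lama2, and 0 rose. Cholesterol synthesis, on which myelin growth depends and which every cell runs, had 12 of 13 tested genes with a negative difference and a median of -0.47, where 0 rose and 1 fell. That gene was Sc5d, with 206.3, 130.8 and 185.7 units in deficient muscle and 360.1, 338.9 and 377.6 units in wild type muscle (-0.999, SE 0.205, adjusted p = 0.0371). Its call was lost with any of 5 arrays left out, all but deficient replicate 3, at adjusted p from 0.055 to 0.144, and under median centring, with no filter and with no trend, at 0.0617, 0.0509 and 0.0642.

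**Figure D4:**
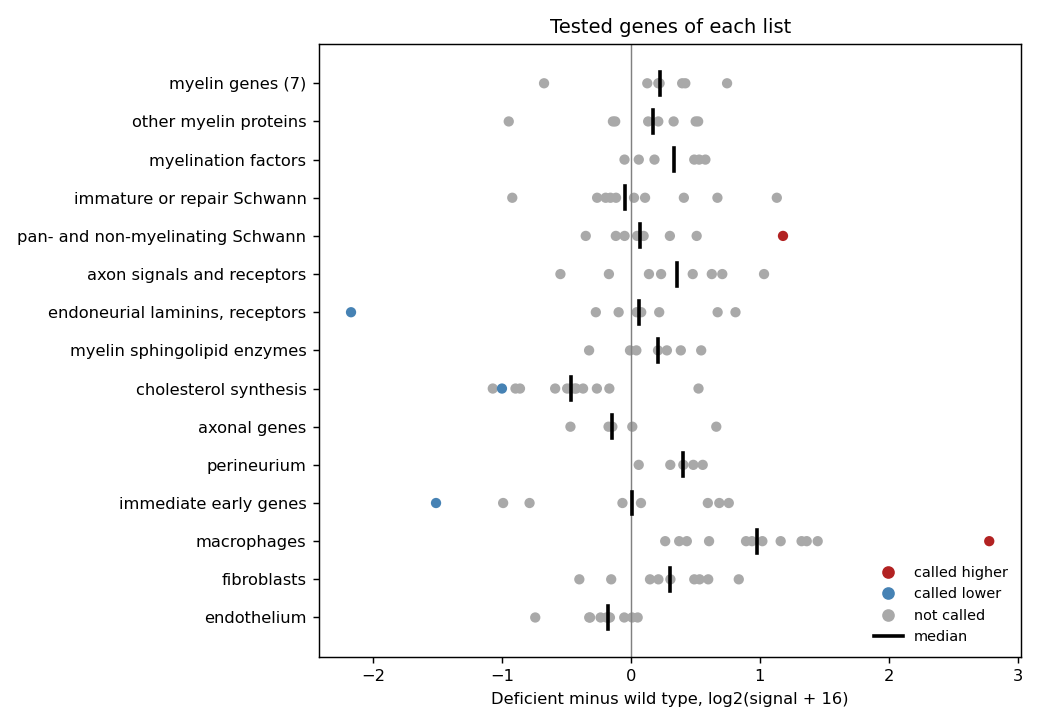
Difference of deficient minus wild type muscle (horizontal axis, log2(signal + 16)) for each tested gene (point) of the myelin genes and of 14 related lists (vertical axis), with the median of each list as a black bar and colour for genes that were called. The 7 myelin genes are all uncalled with a median of 0.22, and macrophage markers have a median of 0.98.

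The other cells in the samples were read from their markers. The oligodendrocyte markers Mog and Olig2 read at most 1.4 and 6.3 units on any array, and 1 of 7 such markers passed the filter. Of 12 axonal genes 5 were tested and 0 were called. Macrophage markers had a positive difference in 12 of 12, of which 1 rose, Mpeg1, the perforin-2 gene (2.78, SE 0.286, adjusted p = 0.00234), which stayed called in all 16 alternatives. Their summed signal ranged from 4798 to 12760 in deficient and from 3203 to 4647 in wild type muscle, highest in deficient replicate 1. Hair follicle and epidermal genes summed to between 249.9 and 383.6 in deficient muscle and to 2807, 1402 and 325.4 in wild type replicates 1, 2 and 3, and 2 of 12 tested fell. These were Krt73, an inner root sheath keratin (-1.83, SE 0.38, adjusted p = 0.0392), and Tchh, the trichohyalin gene (-2.95, SE 0.658, adjusted p = 0.0486). Krt73 lost its call without deficient replicate 1 or 2 or wild type replicate 1 or 2, at adjusted p from 0.0958 to 0.146, and with no trend, no filter or a pseudocount of 64, at 0.0525, 0.0535 and 0.0647. Tchh was called in 4 of its 16 alternatives, those with either block, with a pseudocount of 4 and without wild type replicate 3. Its adjusted p was between 0.0522 and 0.172 in the others. Perineurial markers, of the sheath around nerve bundles, had a positive difference in 5 of 5 with 0 called and a median of 0.41, and their summed signal ranged from 932 to 1131 in deficient and from 758 to 824.5 in wild type muscle. Lymphocyte markers had a negative difference in 6 of 6 with 0 called and a median of -0.40, and summed to between 217.1 and 237.8 in deficient and between 308.5 and 359.8 in wild type muscle. Endothelial, adipocyte and muscle fibre markers gave 0 calls, and their sums overlapped between the groups. The actin control, read as its 5 prime over its 3 prime probe set, stood at 0.819, 0.51 and 0.573 in deficient and 1.15, 1.05 and 1.04 in wild type muscle, without overlap. The same ratio for Gapdh overlapped, at 1.15, 0.886 and 1.01 in deficient and 0.961, 1.19 and 1.14 in wild type muscle. The part of each of these in the myelin values was not tested.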

How the data were processed

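Affymetrix signal of 6 arrays, 3 per group, was analysed. Each deposited value is a linear intensity for a probe set, and the authors had scaled the arrays to a common level, as the values show. No source used here names the algorithm. Per the labels' protocols, biotinylated cRNA came from 1 ug of total RNA extracted with TRIzol and RNeasy. Of 45101 probe sets 64 were controls and 34945 had 1 symbol in the platform annotation, with 932 several and 9160 none, and 34741 matched RefSeq genes of GRCm38.p6.

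Signal was turned into log2(signal + 16), on which the array medians lay within 0.226, under the 0.5 set for centring. Probe sets with a mean signal below the 40th percentile, 15 units, were left out. The brightest probe set stood for its gene, and member probe sets were also fitted among all probe sets. Unless said otherwise, SE and p of a member's brightest probe set are from the gene fit. Those of its other probe sets are from the probe set fit. The test was limma 3.58.1, two-sided with an intensity trend (R 4.3.3, the data.table package, version 1.17.8). Steps were tested on simulated data.

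The members and the 21 lists (206 genes, 194 with a probe set, 160 tested) were chosen with earlier results of these data known. Named were all members, each list's called genes and up to 4 with the smallest p, Lama2 and the 8 genes most like the members. Others were named after their values were seen, and predicted genes were skipped. Alternatives were median centring, quantile normalization, other pseudocounts and filters, no trend, the mean of probe sets, blocks and each array left out. Replicates are separate animals.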

Additional observations from a re-analysis of the deposited data

How the results depend on the processing

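The count of called myelin genes stayed at 0 under every alternative run, and at 0 of the member probe sets likewise. Signs turned in the following differences, given as the lowest and highest value with 1 array left out: Mbp -0.13 to 0.40, Egr2 -0.18 to 0.67 and Mag -0.0016 to 0.27. Among probe sets they were -0.30 to 0.26 for Mbp 1419646_a_at, -0.13 to 0.40 for Mbp 1433532_a_at, -0.996 to 0.059 for Mbp 1451961_a_at, -0.080 to 0.54 for Mbp 1454651_x_at, -0.24 to 0.15 for Cnp 1449296_a_at, -0.0016 to 0.27 for Mag 1460219_at, -0.025 to 0.63 for Egr2 1427682_a_at and -0.18 to 0.67 for Egr2 1427683_at. Median centring also turned Mbp 1419646_a_at, to -0.0017. Pmp22, Ncmap, Cnp and Pmp2 kept their signs under all 16 alternatives.

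Of the related lists 7 genes were called, and 2 to 19 with 1 array left out: 3 without deficient replicate 1 or 2, 19 without deficient replicate 3, and 2 without wild type replicate 1 or 2. With the replicate number as a block the count was 24. Over all genes 353 were called, 216 with no filter, 159 with no trend, 64 to 665 with 1 array left out, 855 with the replicate block and 1144 with Y-linked transcripts as a block. Over all probe sets 381 were called, 223 with no filter, 76 with no trend, 48 to 677 with 1 array left out, 957 with the replicate block and 1258 with the Y-linked block. The labels give same-numbered animals nothing in common but the number. Their deviations correlated at 0.146, 0.067 and 0.298, and 2 of 3 deficient and 2 of 3 wild type arrays matched their own number best. Replicate 3 of each group also shared the low Y-linked signal. The causes were not tested. With 3 arrays a group, 95% intervals of the member probe sets were between 0.84 and 1.99 wide on the log2 scale, which limits the differences that could be detected.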
